A study of Mus musculus with 18 samples.

Results

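The 10 genes described here encode heat shock proteins of the mouse cytosol and mitochondrial matrix, and were taken by name: Hspa1a, Hspa1b, Hspa8, Hsp90aa1, Hsp90ab1, Hsph1, Dnajb1, Hspb1, Hspd1 and Hspe1. All 10 were found, by Ensembl identifier among the 55401 genes of the endothelial count table and by symbol among the 22612 lines of the EO771 table. Hspa1a and Hspa1b are near copies of each other, so their sum is given beside each of them.

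RNA-seq was run on 18 libraries in 6 groups of 3. Endothelial cells were sorted as CD45-CD31high cells from wild-type C57BL/6 mice, which were obtained at 5 to 6 weeks of age. Blood vessel endothelial cells (BECs) lacked the peripheral lymph node addressin (PNAd) and high endothelial cells (HECs) carried it, and the study compared the 2 cell types with and without a tumour of EO771, a mouse breast cancer line. BEC normal came from mammary fat pads digested for 30 min, BEC tumour from primary EO771 tumours digested for 120 min, HEC normal from lymph nodes of mice without tumours and HEC tumour from lymph nodes of tumour-bearing mice that the labels call metastatic, both digested for 60 min. Tissue and digestion therefore cannot be told apart from cell type, or from tumour in BECs. The remaining groups were cultured parental EO771 cells given vehicle (saline with DMSO) or, at 100 nM, 12-HETE for 48 h, 12-HETE being an arachidonic acid product of the lipoxygenase ALOX12. The legends describe the 3 libraries of a group as independent experiments, and how many mice each endothelial library pools is not given in the sources used here.

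Heat shock proteins bind unfolded or aggregating proteins. HSP70 proteins (Hspa1a, Hspa1b and Hspa8) bind short exposed stretches of a client and release them in a cycle driven by ATP. J-proteins such as Dnajb1 bring clients and start ATP hydrolysis, and Hsph1 (HSP110) helps ADP leave. HSP90 (Hsp90aa1 and Hsp90ab1) acts late in the folding of kinases and steroid receptors, small heat shock proteins such as Hspb1 hold clients without ATP, and Hspd1 (HSP60) with its lid Hspe1 (HSP10) forms the folding chamber of mitochondria. Hspa8 and Hsp90ab1 are made at all times, whereas Hspa1a and Hspa1b are the textbook targets of heat shock factor 1 (HSF1), which binds alternating GAA and TTC units known as heat shock elements.

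The promoter sequences with such units are shown first, because Hspa1a and Hspa1b share theirs and so do Hspd1 and Hspe1. Windows from 250 bases before to 50 bases after the start were taken from RefSeq on GRCm38.p6, and 7 of the 10 members had one. Hspa8, Hsp90aa1 and Hsp90ab1 had none. Both strands were searched for 3 units (GAANNTTCNNGAA or TTCNNGAANNTTC, each the reverse complement of the other) and for 2 units (GAANNTTC or TTCNNGAA, which lie within the longer motifs). Of 27025 genes with a window, 0.662% held 3 units and 16.97% held 2 units. Among the 7 members, 3 units stood in Hsph1, Hspd1 and Hspe1, and 2 units in 6, Dnajb1 being the exception. Where units lay before the start they are printed, so that the 3 units of Hsph1, which lie after its start, are not shown. Capitals mark the matched units, and each sequence is on the strand of its gene.
Hspa1a, chr17:34972242-34972271, minus strand: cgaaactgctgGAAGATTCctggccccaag
Hspa1b, chr17:34959324-34959353, minus strand: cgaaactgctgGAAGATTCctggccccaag
Hsph1, chr5:149636351-149636380, minus strand: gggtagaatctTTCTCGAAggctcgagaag
Hspb1, chr5:135887791-135887820, plus strand: cttcaacaagaGAAGTTTCcagatgggggc
Hspb1, chr5:135887811-135887840, plus strand: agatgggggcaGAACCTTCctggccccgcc
Hspd1, chr1:55088053-55088082, minus strand: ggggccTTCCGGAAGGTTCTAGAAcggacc
Hspe1, chr1:55088053-55088082, plus strand: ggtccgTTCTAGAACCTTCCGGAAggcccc
The lines for Hspd1 and Hspe1 are the same bases read on opposite strands. This run of 4 units lies 126 to 143 bases before a start of Hspd1 and 71 to 88 bases before the start of Hspe1, the 2 genes being divergent neighbours. The lines for Hspa1a and Hspa1b are identical, 96 to 103 bases before each start, and their whole windows differ at 4 of 300 bases. A match is a match of letters only, and binding of HSF1 was not measured.

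The near identity of Hspa1a and Hspa1b extends into the coding part. Hspa1a lies at chr17:34969190-34972156 and Hspa1b at chr17:34956436-34959238 of GRCm38, both on the minus strand and 9951 bases apart. Their longest open reading frames aligned with 8 mismatches and 3 gap columns over 1929 bases, an identity of 99.4%, with a longest identical stretch of 638 bases. The translated proteins (641 and 642 residues) had 0 mismatches and 1 gap column. Short reads from most of either coding sequence fit both genes, so the division of reads between them is uncertain and the sum is the firmer quantity. Hspa1a also shares 564 exonic bases with Gm20481 on the opposite strand, and Hspd1 shares 112 with Hspe1. Hspa8 shares 86, 86 and 90 with the small nucleolar RNA genes Snord14c, Snord14d and Snord14e, which lie on its own strand. Whether counting used the strand is not given in the sources used here for the endothelial libraries.

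Endothelial totals ran from 56.4 to 79.4 M per library in the deposited units, which rise in steps of about 3.67 to 3.71, and EO771 totals from 17.3 to 18.6 M reads. The 10 genes summed to 8005 to 11665 CPM (counts per 1 M counted) in endothelial cells and 8229 to 11384 CPM in EO771. Of 10 endothelial markers, Pecam1 and Cdh5 were present at 609 CPM or more in each endothelial library and 6 others at 24.8 CPM or more, whereas Cldn5 was at 232 to 280 CPM in BEC normal but at 0.213 to 2.01 in the other 9 libraries, and Kdr at 324 to 381 against 66.6 to 143. Of the markers of high endothelium, Glycam1 was at 573 to 592 CPM in HEC normal, at 1078 to 1105 in HEC tumour and at 0 in BECs. Madcam1 and Ackr1 were at or near 0 in HECs too, and Enpp2 reached at most 3.998 CPM. Chst4 was at 0.0596 CPM in HEC normal replicate 2 against 291 and 297 CPM in the other HEC normal libraries, and at 916 to 939 in HEC tumour. Fut7 was at 397 to 434 CPM in HEC normal. In HEC tumour it was at 221 CPM in replicate 3 against 1021 and 1011 in the other libraries. The 8 leukocyte markers summed to 105 to 124 CPM in BEC normal, 1436 to 1902 in BEC tumour, 483 to 509 in HEC normal and 356 to 374 in HEC tumour, most of it Cd68 and, in BEC tumour, Lyz2. Ptprc, which encodes the CD45 that was sorted against, stood at 5.95 to 12.8 CPM in BEC tumour and at most 0.435 CPM in the other endothelial groups. In bulk RNA, more cells of a type and more RNA per cell cannot be told apart.

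Levels set per kilobase of exon gave a steep order within each group. Hsp90ab1 was first in all 6 groups, at 97501 ± 1548 normalised counts per kb in BEC normal and 70489 ± 596 in HEC tumour (SD, n = 3). Hspa8 was second in both BEC groups and in EO771, but in HECs it came after Hspb1, which was at 51068 ± 2529 per kb in HEC normal. In HEC tumour the libraries of Hspb1 and Hspa8 overlapped, so those 2 ranks do not differ beyond their spread. The mitochondrial pair stood in the middle, and the ranges of Hspe1 and Hsp90aa1 overlapped in BEC normal, as did those of Hsph1 and Dnajb1 in BEC normal, HEC tumour and EO771 vehicle. Hspa1b and Hspa1a were last in endothelial cells, at 778 ± 41.2 and 304 ± 25.4 per kb in BEC normal. Hsp90ab1 and Hspa8 together made up most of the members' normalised counts: Hsp90ab1 was 36.8 to 46.3% and Hspa8 25.9 to 39.6% of the sum in each endothelial library.

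**Figure D1:**
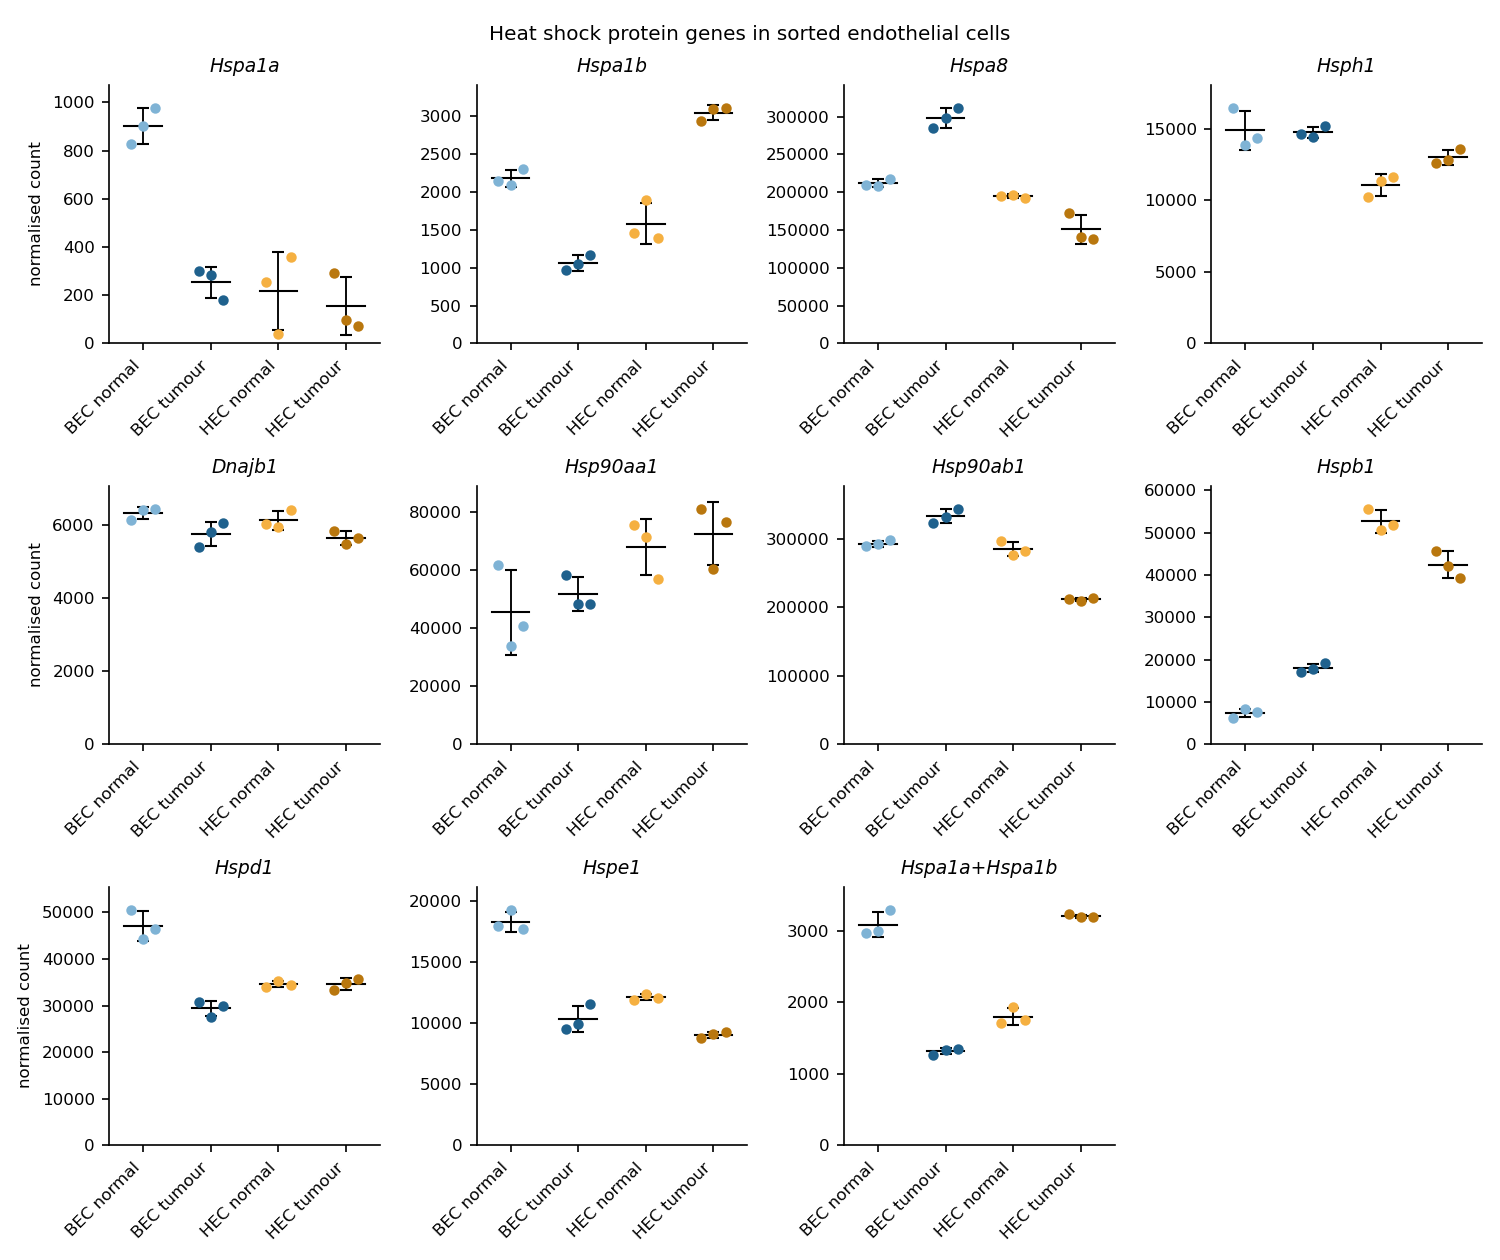
Normalised counts of the 10 genes and of the sum of Hspa1a and Hspa1b in the 12 endothelial libraries, 1 panel a gene with its own y axis from 0. Points are libraries, bars the mean and SD of 3, and the sum of the Hspa1 genes is lowest in BEC tumour (1264 to 1350) while Hspb1 is highest in HEC normal (50604 to 55587).

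Inducible HSP70, as Hspa1b and as the sum of both copies, moved in opposite directions with a tumour in the 2 endothelial cell types, while Hspa1a alone was lower in BEC tumour and did not pass in HECs. Summed over Hspa1a and Hspa1b, the BEC normal libraries held 2971, 2991 and 3286 normalised counts and the BEC tumour libraries 1264, 1336 and 1350.4. In HECs the order turned, with 1715, 1935 and 1747 in HEC normal and 3227, 3192 and 3183 in HEC tumour. Neither pair of groups overlapped, and the HEC tumour libraries reached the level of BEC normal. The sum fell in BECs 2.34-fold, a log2 fold change of -1.23 ± 0.07 (SE; DESeq2 Wald test, adjusted p = 7.82e-61). In HECs it was 1.78-fold higher with a tumour, at 0.83 ± 0.07 (adjusted p = 3.88e-28), which is under the fold of 2 that a call needs. The difference between these changes, tested as the interaction of tumour and cell type, was 2.06 ± 0.10 (adjusted p = 1.19e-85), the HEC change being the more positive.

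**Figure D2:**
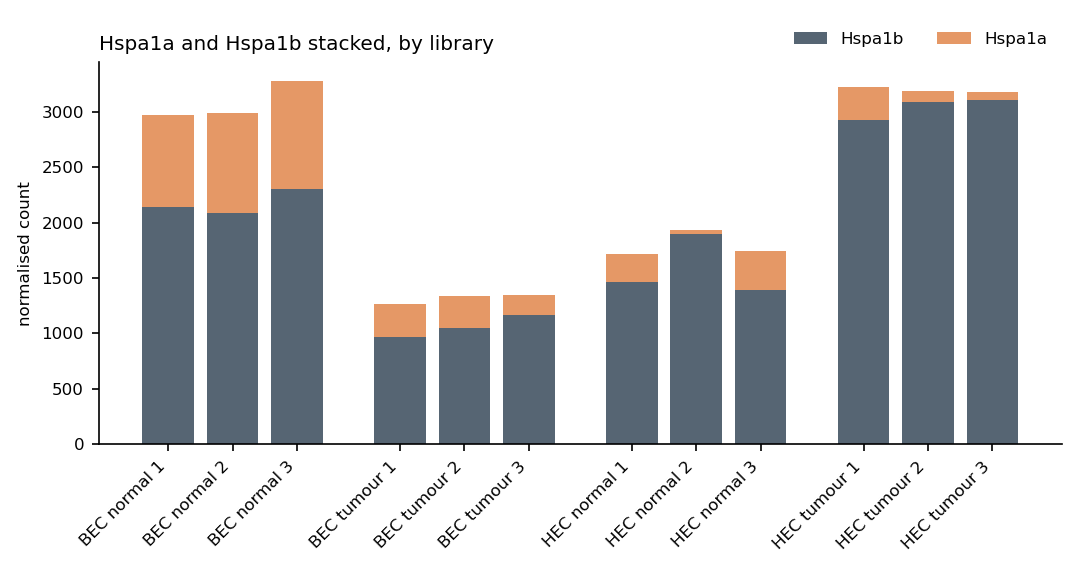
Normalised counts of Hspa1b (dark) and Hspa1a (light) stacked for each endothelial library, on a y axis from 0. The height of the stack varies little within a group, between 3183 and 3227 in HEC tumour, while the division between the copies varies, with Hspa1a at 2.29 to 9.09% of it there.

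Taken singly, most of this was Hspa1b. Hspa1b held 2146, 2088 and 2310.0 in BEC normal, 965, 1053 and 1170.0 in BEC tumour, 1463, 1895 and 1389 in HEC normal and 2933, 3095 and 3110.3 in HEC tumour. No library of a tumour group overlapped the normal group of its cell type. Its log2 fold change with tumour was -1.04 ± 0.13 in BECs (adjusted p = 3.95e-15) and 0.95 ± 0.13 in HECs (adjusted p = 2.04e-12), and the interaction was 1.98 ± 0.18 (adjusted p = 8.83e-27). The BEC value lies at the fold of 2: it was -0.97 without BEC tumour replicate 1 and then not called, while the HEC value was 1.09 and called without HEC normal replicate 2.

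Hspa1a was lower and far more scattered. Its libraries read 825, 904 and 976 in BEC normal, 299.6, 283 and 180.5 in BEC tumour, 253, 39.7 and 357 in HEC normal and 293, 97.7 and 73.1 in HEC tumour. BEC normal stood above each of the other 9 libraries, and those 3 groups overlapped one another. Against BEC normal, Hspa1a differed by -1.83 ± 0.63 in BEC tumour (adjusted p = 0.00826) and by -2.06 ± 0.63 in HEC normal (adjusted p = 0.00217), both called. With a tumour in HECs its log2 fold change was -0.49 ± 0.63 (adjusted p = 0.606). In HEC tumour against BEC tumour it was not called, but was, at -1.57, without HEC tumour replicate 1. Its share of the Hspa1 sum ran from 27.8 to 30.2% in BEC normal and from 2.05 to 20.5% in HEC normal, while the sum ran only from 2971 to 3286 and from 1715 to 1935.

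The constitutive HSP70 gene and the more abundant HSP90 gene went the other way from the Hspa1 sum. Hspa8, the housekeeping HSP70, read 209553, 208479 and 217711 in BEC normal and 285367, 298462 and 311483 in BEC tumour, without overlap. In HECs it read 195157, 196829.8 and 192049.7 without and 172371, 141109 and 138628 with a tumour, again without overlap. By adjusted p alone Hspa8 was higher with a tumour in BECs (0.49 ± 0.08, adjusted p = 1.17e-08) and lower with one in HECs (-0.37 ± 0.08, adjusted p = 5.45e-05), with an interaction of -0.86 ± 0.12 (adjusted p = 1.50e-12). HEC tumour stood 1.98-fold under BEC tumour (-0.99 ± 0.08, adjusted p = 2.12e-31), just inside the fold of 2, and was called lower by edgeR, without BEC tumour replicate 1 (-1.02) and without HEC tumour replicate 1 (-1.09).

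Hsp90ab1, the constitutive HSP90, moved in the same way with less spread. It read 288403, 291316 and 297495 in BEC normal, 323001, 331709 and 342988 in BEC tumour, 295798, 276419 and 282499.6 in HEC normal and 211516, 209551 and 213120.2 in HEC tumour. The tumour groups were the highest and the lowest of the 4, and the 2 normal groups overlapped. Hsp90ab1 was 1.14-fold higher with a tumour in BECs (0.19 ± 0.04, adjusted p = 1.10e-05) and 1.35-fold lower in HECs (-0.43 ± 0.04, adjusted p = 1.77e-25), with an interaction of -0.62 ± 0.06 (adjusted p = 1.48e-26). None of these passed the fold of 2. Over the 12 endothelial libraries, which share their 4 groups, Pearson's r of log2 levels was 0.92 between Hspa8 and Hsp90ab1, and -0.86 and -0.87 between Hspa1b and each of them.

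Hsp90aa1, the stress-inducible HSP90, varied within groups. BEC normal read 61954, 33750.3 and 40828, BEC tumour 58416, 48493 and 48337, HEC normal 75644, 71474 and 57098 and HEC tumour 81063, 60283 and 76529.7. Replicate 1 was the highest library in each of the 4 groups, and the tumour and normal libraries overlapped in both cell types. With a tumour its log2 fold change was 0.19 ± 0.20 in BECs (adjusted p = 0.461) and 0.09 ± 0.20 in HECs (adjusted p = 0.78). Without BEC normal replicate 1, the highest of its group, the BEC value was 0.47 and passed adjusted p (0.00772), and it ran down to 2.6e-05 as other libraries were left out. The ratio of Hsp90ab1 to Hsp90aa1 counts ran from 4.66 to 8.63 in BEC normal and from 2.61 to 3.48 in HEC tumour.

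None of the HSP70 partners reached the fold of 2. Hsph1, the nucleotide exchange factor, read 16467, 13868 and 14384 in BEC normal, 14672, 14462 and 15197 in BEC tumour, 10210.2, 11373 and 11669 in HEC normal and 12622, 12811 and 13632 in HEC tumour. The BEC groups overlapped and the HEC groups did not, the HEC difference being 0.23 ± 0.08 (adjusted p = 0.0141), which missed adjusted p without HEC normal replicate 1 (0.104) or HEC tumour replicate 3 (0.0938). Dnajb1, the J-protein that works with inducible HSP70, lay between 5409 and 6435 in all 12 libraries. Tumour libraries lay under the normal ones without overlap in both cell types. Its log2 fold change was -0.13 ± 0.06 with tumour in BECs (adjusted p = 0.0516) and -0.12 ± 0.06 in HECs (adjusted p = 0.134). The BEC value passed adjusted p without BEC normal replicate 1 (0.0419) or BEC tumour replicate 3 (0.0198).

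Hspb1 (HSP25 in the mouse), a small heat shock protein that also binds actin filaments, separated the cell types most among the members in the absence of a tumour. BEC normal read 6330.0, 8277 and 7523, BEC tumour 17204, 17893 and 19155, HEC normal 55587, 50604 and 51761 and HEC tumour 45732, 42248 and 39277. The 4 groups did not overlap, and each HEC library was above each BEC library. HEC normal was 7.14-fold over BEC normal (2.84 ± 0.10, adjusted p = 3.77e-168). A tumour went with a 2.45-fold rise in BECs (1.29 ± 0.10, adjusted p = 1.73e-35) and with a 1.24-fold lower level in HECs (-0.31 ± 0.10, adjusted p = 0.00822, or 0.0586 without HEC normal replicate 1 and 0.0661 without HEC tumour replicate 3), so that the gap between the cell types narrowed to 2.35-fold. The interaction was -1.61 ± 0.14 (adjusted p = 1.80e-27). In counts of the members, Hspb1 was 0.959 to 1.32% of the sum in BEC normal and 7.64 to 8.10% in HEC normal.

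The mitochondrial chaperonin genes fell together in BECs without reaching the fold of 2. Hspd1 read 50526, 44219 and 46356 in BEC normal and 30774, 27656 and 29892 in BEC tumour, and Hspe1 17889, 19222 and 17710.2 and 9526, 9930.1 and 11558. Neither pair overlapped. The log2 fold changes were -0.68 ± 0.07 for Hspd1 (adjusted p = 4.38e-24) and -0.82 ± 0.08 for Hspe1 (adjusted p = 1.21e-25). In HECs the pair parted. Hspd1 read 34003, 35375 and 34454 and 33381, 34813 and 35792, which overlapped, whereas Hspe1 read 11881, 12386 and 12063 and 8778, 9089 and 9222, without overlap (-0.42 ± 0.08, adjusted p = 3.86e-07). The ratio of Hspd1 to Hspe1 counts was 2.86 in each HEC normal library and 3.803 to 3.88 in HEC tumour. The pseudogene Hspd1-ps3 held at most 1394 deposited units in a library, small beside its parent.

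**Figure D3:**
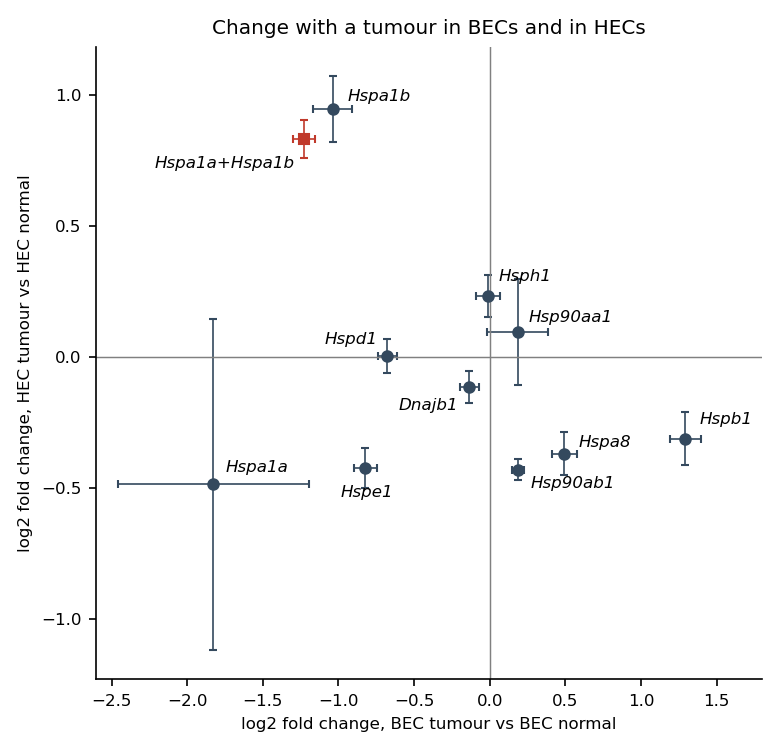
Log2 fold change with a tumour in BECs (x axis) against that in HECs (y axis) for each gene and, as a red square, for the sum of Hspa1a and Hspa1b; bars are SE of the DESeq2 fit. Hspa1b and the sum lie at the upper left (-1.04 and 0.95 for Hspa1b) and Hspb1, Hspa8 and Hsp90ab1 at the lower right.

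Counted over the members, calls needed an adjusted p under 0.05 and a fold over 2. In BEC tumour against BEC normal, 1 of 10 was higher (Hspb1) and 2 lower (Hspa1a and Hspa1b), where 12.4% and 10.8% of the 18511 genes tested were called higher and lower. By adjusted p alone 7 of 10 differed, against 53.7% of all genes. In HEC tumour against HEC normal none of the 10 was called, where 4.58% of all genes were called higher and 3.21% lower. There 2 were higher and 4 lower by unadjusted p with DESeq2, a rule not counted over all genes, and edgeR also called none. The same 6 of 10 passed adjusted p alone, against 35.4% of all genes (3128 higher and 3426 lower). For the interaction, 1 was called higher (Hspa1b) and 1 lower (Hspb1), against 11.2% and 12.1%, and 6 of 10 passed adjusted p alone against 46.7%. The called members were in each case the Hspa1 genes and Hspb1, and a count of 1 or 2 in 10 is not far from the share among all genes. The median log2 fold change of the members was -0.07 in BECs and -0.21 in HECs, beside 0.0083 and 0.019 for all genes.

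Between the cell types without a tumour, 1 of 10 members was higher in HECs (Hspb1) and 1 lower (Hspa1a), where 17.1% and 15.1% of all genes were called. By adjusted p alone 7 of 10 differed, against 63.3% of all genes, 2 higher (Hspb1 and Hsp90aa1, the second of which missed adjusted p in 3 of the 6 fits without 1 library) and 5 lower. Besides Hspa1a and Hspa1b, the lower ones were Hspe1 at -0.59 ± 0.08, Hspd1 at -0.44 ± 0.07 and Hsph1 at -0.43 ± 0.08 (adjusted p at most 3.63e-07 for these), and the sum of the Hspa1 genes stood at -0.78 ± 0.07. In HEC tumour against BEC tumour, 2 of 10 were called higher, Hspa1b at 1.52 ± 0.13 (adjusted p = 2.28e-31) and Hspb1 at 1.23 ± 0.10 (adjusted p = 2.68e-32), and none lower, against 11.2% and 10.7% of all genes. Of the 8 of 10 that passed adjusted p alone, against 54.3%, the ones next in size were Hspa8 and Hsp90ab1 (-0.65 ± 0.04, adjusted p = 6.01e-59), both lower in HECs. Of these 8, Hsph1, Hsp90aa1 and Hspe1 missed adjusted p in 5, 4 and 3 of the 6 fits that leave out 1 library. By unadjusted or adjusted p alone 4 members were lower in this comparison, and edgeR called 1 of them, Hspa8. By adjusted p alone 5256 of the 18511 genes were lower.

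**Figure D4:**
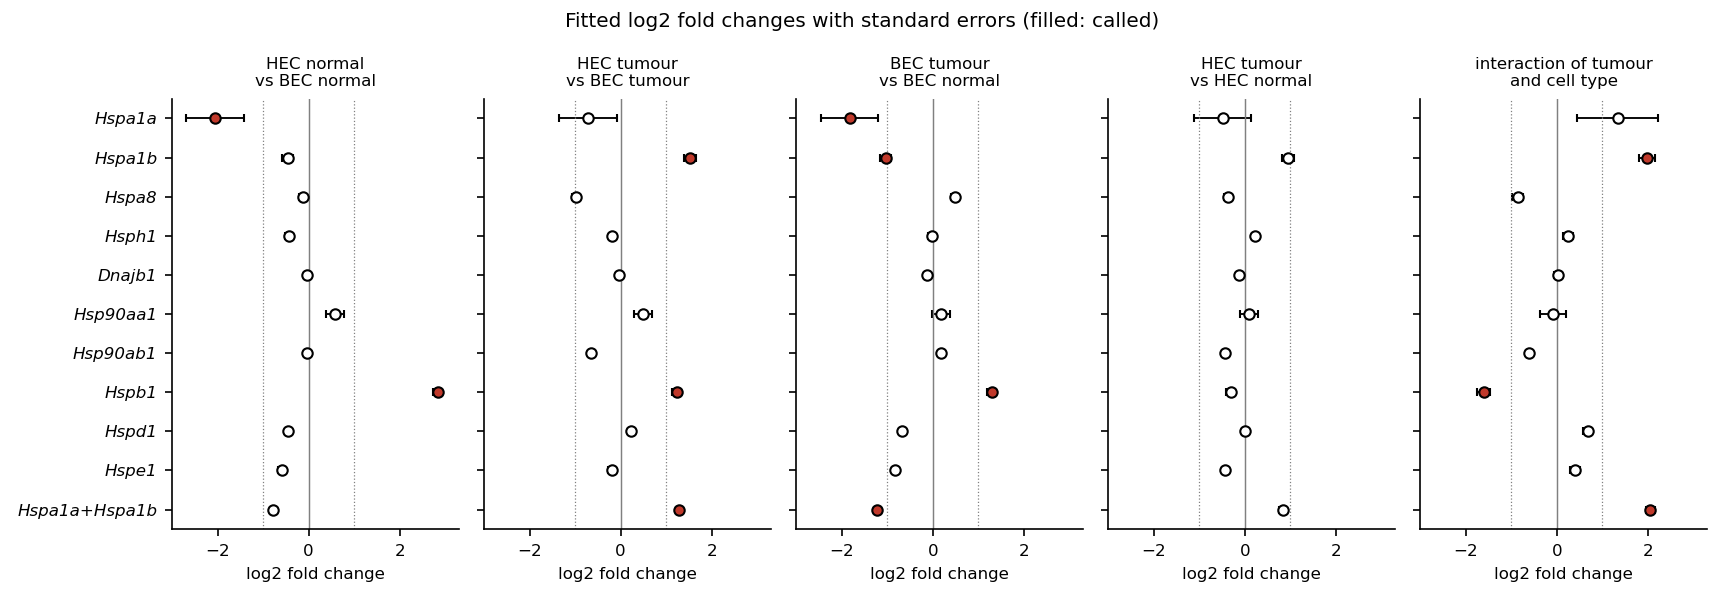
Log2 fold changes of the 10 genes and of the Hspa1 sum in 5 endothelial comparisons, with SE as bars, filled where called; dotted lines mark a fold of 2 in either direction. Hspb1 is filled in 4 of the 5 panels, and no gene in HEC tumour against HEC normal.

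Other measures moved with these comparisons, and their part in the results was not tested. In BECs, tumour and normal differed in digestion (120 against 30 min), in the leukocyte markers given above, and in 8 markers of fibroblasts and pericytes, which summed to 824 to 833 CPM in BEC normal and 78.3 to 109 in BEC tumour. They also differed in 6 markers of epithelium and tumour cells, at 3.94 to 7.23 CPM in BEC normal and at 16.5, 20.2 and 102 in BEC tumour, where replicate 3 stood apart (Krt8 at 33.2 CPM against 0.526 and 2.67). In HECs, the markers of high endothelium summed to 970 to 1327 CPM without and 2219 to 3052 with a tumour. Mitochondrially encoded transcripts took 2.23 to 2.44% of counts in HEC normal and 2.85 to 3.09% in HEC tumour. The 12 immediate early genes, which rise within minutes of stress or tissue dissociation, summed to 604 to 673 CPM in BEC normal, 659 to 697 in BEC tumour, 1452 to 1570 in HEC normal and 1723 to 1746 in HEC tumour. Of these 12, in BECs 2 were called higher and 4 lower with a tumour, where 12.4% and 10.8% of all genes were called. In HECs none was called, where 4.58% of all genes were called higher and 3.21% lower. Atf3, a stress-induced transcription factor, rose in BEC tumour by 1.65 ± 0.09 (adjusted p = 4.77e-68). It stood at 0.73 ± 0.09 in HEC tumour against HEC normal (adjusted p = 2.71e-14). Fos stood at 0.96 ± 0.18 in BECs (adjusted p = 5.14e-07) and 0.28 ± 0.18 in HECs (adjusted p = 0.228), neither called. Its BEC value was called without BEC normal replicate 1 (1.003) or BEC tumour replicate 3 (1.14). Hsf1 transcript itself differed by 0.11 ± 0.15 in BECs (adjusted p = 0.553) and 0.30 ± 0.15 in HECs (adjusted p = 0.106). The 11 chaperones of the endoplasmic reticulum gave no call in either tumour comparison, beside the same shares of all genes. Among them Hspa5 (BiP) stood at -0.08 ± 0.15 in BECs (adjusted p = 0.673) and 0.56 ± 0.15 in HECs (adjusted p = 0.00109). Hsp90b1, the HSP90 of the endoplasmic reticulum, stood at -0.21 ± 0.12 in BECs (adjusted p = 0.135) and -0.17 ± 0.12 in HECs (adjusted p = 0.278).

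A wider set of 56 chaperone genes and cofactors outside the 10 was counted in the same way. In BEC tumour against BEC normal 1 was called higher and 3 lower, beside the 12.4% and 10.8% of all genes given above, with a median log2 fold change of -0.14. The 3 lower genes were Bag2, a nucleotide exchange factor of HSP70 (-1.87 ± 0.11, adjusted p = 5.61e-65), Dnaja4, a J-protein (-2.36 ± 0.15, adjusted p = 2.20e-54), and Hspb8, a small heat shock protein that works with Bag3 (-3.002 ± 0.27, adjusted p = 1.09e-27). The higher one was Hspb7, from 17.4 ± 16.1 to 90.9 ± 21.0 normalised counts (2.37 ± 0.77, adjusted p = 0.0046). By adjusted p alone 27 of the 56 were lower and 9 higher, among them 6 of the 8 subunits of the cytosolic chaperonin TRiC lower and 1 higher. Of all genes, 26.5% were higher and 27.2% lower by that rule. In HEC tumour against HEC normal none was called higher and 1 lower, where 4.58% and 3.21% of all genes were called. The lower one was Hspa4l, an HSP110 relative of Hsph1 (-1.13 ± 0.13, adjusted p = 8.07e-16).

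Between the cell types the 56 gave 4 higher and 5 lower calls in HEC normal against BEC normal, where 17.1% and 15.1% of all genes were called. Their median log2 fold change was -0.06. Hspb8 was at 6.53 ± 5.90 normalised counts in HEC normal and 5331 ± 728 in BEC normal (-9.66 ± 0.42, adjusted p = 1.98e-115), the reverse of Hspb1. Of the 5 small heat shock proteins outside the members it was the 1 called lower, while 3 were called higher, as Hspb1 was. The markers of fibroblasts and pericytes also differed here, at 25.2 to 26.3 CPM in HEC normal and 824 to 833 in BEC normal. Their part in these differences was not tested. Fkbp5, a co-chaperone of HSP90 and glucocorticoid receptor target, was at 3695 ± 111 against 12402 ± 270 (-1.75 ± 0.05, adjusted p = 6.82e-242), and Dnaja4 at 232 ± 38.92 against 1949 ± 94.4 (-3.07 ± 0.15, adjusted p = 6.81e-87). Bag2 (-2.08 ± 0.11, adjusted p = 8.55e-80) and Trap1, the mitochondrial HSP90 (-1.18 ± 0.06, adjusted p = 3.79e-94), were lower too. Dnajc2, a J-protein of the ribosome, was higher (1.39 ± 0.10, adjusted p = 2.91e-43). In HEC tumour against BEC tumour 3 were higher and 2 lower, where 11.2% and 10.7% of all genes were called. The counts were 1 to 3 in each direction as 1 library was left out. Dnajc2 was not called without BEC tumour replicate 3, and Hspb2 without BEC tumour replicate 2 or 3 or HEC tumour replicate 2. Fkbp5 (-0.97 to -0.9996) was not called without BEC tumour replicate 1 or 2 or HEC tumour replicate 1 or 3. Cryab, a relative of Hspb1, was at 10509 ± 2317 in HEC tumour and 4294 ± 228 in BEC tumour (1.29 ± 0.14, adjusted p = 1.93e-18). Hspb8 was again lower (-5.90 ± 0.37, adjusted p = 1.59e-54). Without and with a tumour, 6 and 7 of the 12 immediate early genes were called higher in HECs and 1 and 0 lower. The shares of all genes are those given above. Atf3 stood at 2.51 ± 0.09 and 1.59 ± 0.09, both called. Fos stood at 1.49 ± 0.18, called, and 0.81 ± 0.18 (adjusted p = 2.20e-05), not called. Of the 11 chaperones of the endoplasmic reticulum, 1 and 1 were called higher and 1 and 0 lower. Hspa5 stood at -0.64 ± 0.15 (adjusted p = 5.67e-05) and 0.0019 ± 0.15 (adjusted p = 0.994). Hsp90b1 (0.04 and 0.08) and Hsf1 (-0.05 and 0.13) did not pass adjusted p without or with a tumour. For the interaction 4 of the 56 were called higher and 2 lower, where 11.2% and 12.1% of all genes were called. Without any one of 6 of the 12 libraries, 1 was lower.

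The genes whose log2 levels ran most like the Hspa1 sum over the 12 endothelial libraries, among 13280 with a mean of at least 100, were Acsbg1 (Pearson's r = 0.99), Cnn2 (0.99), Taf1a (0.99), Cuedc1 (0.98) and Srfbp1 (0.97). None is a member or a listed chaperone. The libraries fall into 4 groups, so these values describe group levels.

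In EO771 cells a further picture was seen. Hspa1a was counted 0 times in all 3 vehicle libraries and 1, 0 and 0 times with 12-HETE, and Hspa1b 0 times in all 6, where a count of 0 allows up to 3 reads. Hspb1 held 4 to 7 reads with vehicle and 2 to 6 with 12-HETE. These 3 genes, which carry most of the endothelial differences, were thus under the mean of 10 needed for a test, and no fold is given for them. Whether reads that fit both Hspa1 copies were dropped in this table was not tested.

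The 7 members left all had log2 fold changes above 0 with 12-HETE, and 5 passed adjusted p alone. Hspd1 read 17603, 15553 and 20287 normalised counts with vehicle and 32108, 31864 and 32113 with 12-HETE, 1.8-fold higher (0.85 ± 0.11, adjusted p = 2.52e-12). Its partner Hspe1 read 5004, 5829 and 5134 and 6607, 7369 and 7092 (0.40 ± 0.10, adjusted p = 2.79e-04). Neither gene overlapped between the groups. Hsp90aa1 read 18166, 18391 and 22939.6 and 31836, 33562 and 34276 (0.74 ± 0.12, adjusted p = 2.31e-09), whereas Hsp90ab1 read 57044, 57569 and 51024 and 58192, 59213 and 60486 (0.10 ± 0.08, adjusted p = 0.314). Both HSP90 genes were higher with 12-HETE without overlap between the groups, but only the inducible one passed adjusted p. The ratio of the constitutive to the inducible gene was 2.22 to 3.14 with vehicle and 1.76 to 1.83 with 12-HETE.

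Of the HSP70 group, Hspa8 read 42460.5, 47111 and 41032 with vehicle and 60567, 62029.9 and 62479.6 with 12-HETE (0.50 ± 0.09, adjusted p = 5.24e-08), without overlap. Hsph1 read 6168, 8108 and 7019 and 9471, 9874 and 9969.9 (0.46 ± 0.12, adjusted p = 4.20e-04), also without overlap. Dnajb1 read 2031, 2991 and 1943 and 2474, 2381 and 2216 (0.02 ± 0.17, adjusted p = 0.928), vehicle replicate 2 being the highest of the 6, and its log2 fold change ran from -0.09 to 0.24 as libraries were left out in turn, passing adjusted p (0.0147) at 0.24 without vehicle replicate 2.

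**Figure D5:**
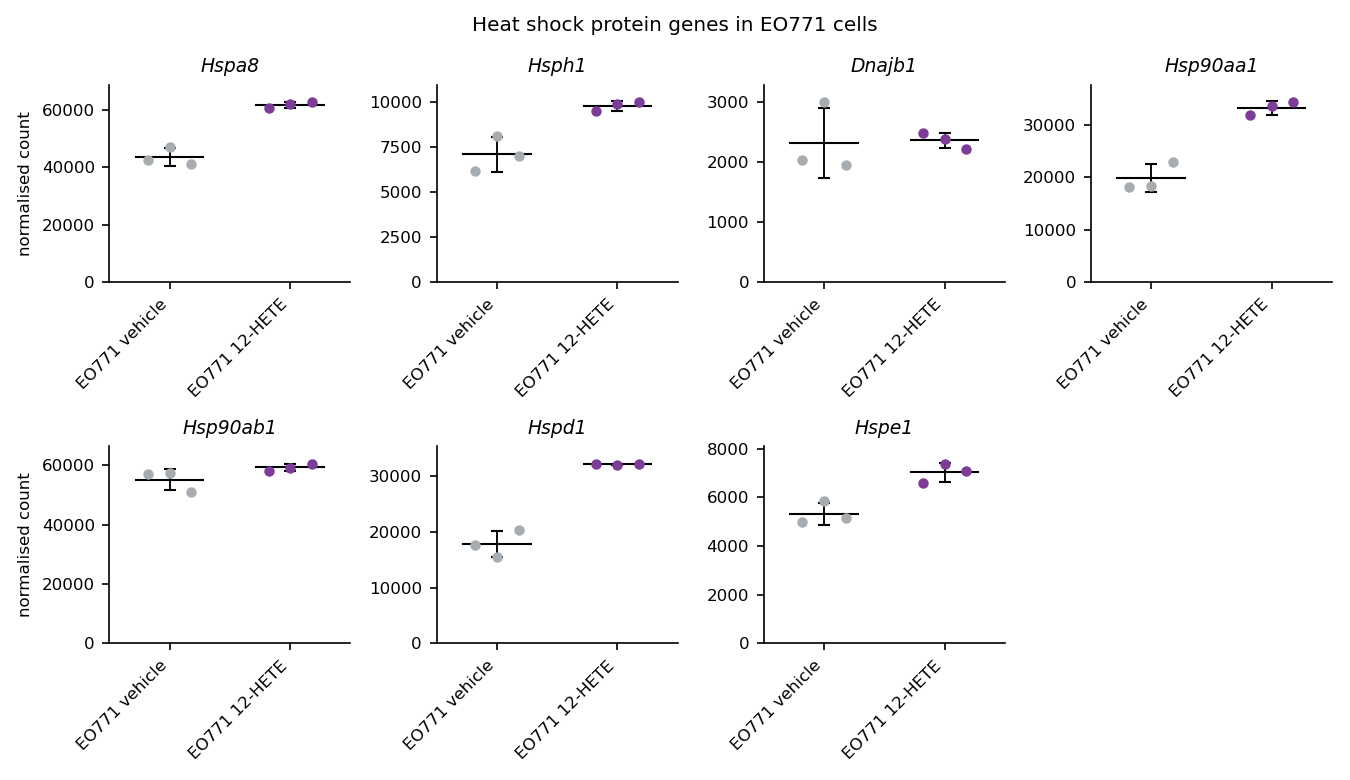
Normalised counts of the 7 genes tested in EO771 cells, vehicle against 12-HETE, 1 panel a gene with its own y axis from 0; points are libraries, bars the mean and SD of 3. Hspd1 lies between 15553 and 20287 with vehicle and between 31864 and 32113 with 12-HETE, whereas the Dnajb1 groups overlap.

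None of the 7 was called, since none passed the fold of 2, where 2.38% of the 11602 genes tested were called higher and 7.79% lower. By unadjusted p 5 were higher, a rule not counted over all genes, and edgeR called none. The same 5 of 7 were higher by adjusted p alone, beside 22.7% of all genes higher and 47.0% in either direction. Their median log2 fold change was 0.46, beside 0.0012 for all genes. Of the 56 other chaperones 52 could be tested, and none was called higher and 2 lower. These were Hspb6, a small heat shock protein (-1.20 ± 0.12, adjusted p = 2.42e-20), and Lonp1, a protease of the mitochondrial matrix (-1.19 ± 0.17, adjusted p = 1.13e-10), which was at -0.96 and not called without EO771 vehicle replicate 2. By adjusted p alone 19 were higher and 10 lower, beside 22.7% and 24.2% of all genes, with 8 of the 10 co-chaperones of HSP90 higher and 5 of the 9 other mitochondrial chaperones and proteases lower. None of the 11 chaperones of the endoplasmic reticulum was called, and by adjusted p alone 4 were higher and 0 lower. Among them Hsp90b1 stood at 0.75 ± 0.12 (adjusted p = 1.46e-09) and Hspa5 at -0.15 ± 0.10 (adjusted p = 0.222). Hsf1 stood at -0.24 ± 0.10 (adjusted p = 0.0294). All 12 immediate early genes were called lower, with Atf3 at -3.72 ± 0.12 (adjusted p = 4.06e-194) and Fos at -1.71 ± 0.16 (adjusted p = 7.70e-25). Mitochondrially encoded transcripts took 0.718 to 0.816% of counts with vehicle and 2.24 to 2.45% with 12-HETE. The part of these differences in the results on the heat shock genes was not tested.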

How the data were processed

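The 10 genes and the lists were chosen with earlier results of these data known. The authors mapped reads to GRCm38 and counted fragments over genes. The deposited endothelial values are whole numbers that rise in steps, so 1 unit is not 1 fragment, and they were used as estimated counts. The deposited EO771 values are raw counts. The labels and the methods name different library kits and RNA extraction for EO771. Lines with a mean under 10 were removed, as in the study's methods, which left 18511 endothelial and 11602 EO771 genes.

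DESeq2 1.42.0 in R 4.3.3 was fitted once to the 12 endothelial and once to the 6 EO771 libraries, with group as the only term, Wald tests (two-sided) and p-values adjusted by Benjamini-Hochberg over all genes tested. A gene was called at an adjusted p under 0.05 and a fold over 2. Levels are DESeq2 normalised counts, comparable within a table only. An adjusted p was not given by DESeq2 for 65 endothelial genes, none of them named here. An exact permutation test of 3 against 3 libraries cannot give a p under 0.1. Exon lengths are unions of exons in GENCODE vM21. CPM is the deposited count per 1 M counted. A floor of 3 reads covers counting error only, as no molecular identifiers mark single molecules.

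Genes outside the 10 were named by a fixed rule: in each comparison of 2 groups the 6 called chaperones of lowest p, with Hsf1, Hspa5, Hsp90b1, Fos and Atf3. Alternatives were edgeR's quasi-likelihood test (4.0.16), TMM factors, no filter, other call rules, a replicate block, only the groups compared, values divided by their step, and leaving out each replicate. In EO771, libraries with the same replicate number deviated together (correlations of 0.111, 0.173 and 0.328). The EO771 values given are from the fit without pairs, and the replicate block is the alternative that takes the numbers as pairs. The scripts were tested on simulated data.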

Additional observations from a re-analysis of the deposited data

Results flagged for a closer look

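For 3 quantities the change with a tumour differed between HECs and BECs by a test of the difference itself and by a fold over 2. The change in HECs less that in BECs was 1.98 (log2) for Hspa1b, 2.06 for the sum of Hspa1a and Hspa1b, and -1.61 for Hspb1. Over the alternatives that leave the call rule as it was, the interaction ran from 1.89 to 2.13 for Hspa1b, from 2.00 to 2.11 for the sum and from -1.69 to -1.501 for Hspb1. The BEC groups differ in tissue and digestion as well as tumour, so these cannot be told apart in the BEC side of each difference.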

How the results depend on the processing

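Limits come from 3 libraries a group, from the confounding of tissue and digestion with the BEC comparison, and from the near copies. By adjusted p alone 2 members were higher and 5 lower in HEC normal against BEC normal (5815 and 5902 of 18511 genes). The counts were 4 and 4 in HEC tumour against BEC tumour (4801 and 5256 genes). In HEC tumour against HEC normal they were 2 and 4 (3128 and 3426 genes). In BEC tumour against BEC normal they were 3 and 4 (4908 and 5034 genes). For the interaction they were 3 and 3 (4246 and 4397 genes). In EO771 5 were higher, beside 2637 of 11602 genes. The Hspa1 sum then passed at -0.78 in HEC normal against BEC normal and at 0.83 in HEC tumour against HEC normal. A DESeq2 test against a log2 fold change of 1 left 0 lower in HEC normal against BEC normal, beside 1717 genes. It left 1 higher in HEC tumour against BEC tumour (687 genes) and 0 lower in BEC tumour against BEC normal (986 genes). Hspa8 made 1 lower in HEC tumour against BEC tumour with edgeR, TMM factors or only the 2 groups compared. Beside it 1961 and 2085 of 18511 genes and 2040 of 18675 were lower. With only the 2 groups, 1 member stayed lower in BEC tumour against BEC normal, beside 2132 of 18216 genes. Leaving out replicates gave 0 to 2 lower in HEC tumour against BEC tumour, beside 1776 to 2063 genes. It gave 0 to 1 higher in HEC tumour against HEC normal, beside 706 to 856 genes. In BEC tumour against BEC normal 1 to 2 members were lower, beside 1811 to 1980 genes. For the other chaperones it gave 1 to 3 higher and 1 to 3 lower in HEC tumour against BEC tumour, 1 to 2 lower for the interaction, and 0 to 1 higher and 1 to 3 lower in EO771. A replicate block gave the same counts of members as no block (1 higher and 2 lower in BEC tumour against BEC normal, 0 and 0 in EO771). Endothelial libraries with the same number had correlations from -0.015 to 0.126. Some values that were not called changed sign, most of them near 0, with Hspa1a in HEC tumour against HEC normal (-0.49) further off. With edgeR or TMM factors the log2 fold changes were 0.0038 for Hsp90ab1 in HEC normal against BEC normal, -0.022 for Hspd1 in HEC tumour against HEC normal, 0.023 for Hsph1 in BEC tumour against BEC normal, -0.042 for Dnajb1 in the interaction and -0.017 for Hspa5 in HEC tumour against BEC tumour. With no filter Hspd1 was at -0.0012 and Hspa5 at -0.0074, with only the 2 groups Hspd1 at -0.0039, Hsph1 at 0.029 and Hspa5 at -0.019, and with the replicate block Hspa5 at -0.0020. Leaving out replicates, the ranges that crossed 0 were, in HEC normal against BEC normal, -0.22 to 0.071 for Hsf1 and -0.086 to 0.18 for Hsp90b1; in HEC tumour against BEC tumour, -0.072 to 0.0076 for Dnajb1 and -0.12 to 0.17 for Hspa5; in HEC tumour against HEC normal, -1.34 to 0.078 for Hspa1a, -0.021 to 0.21 for Hsp90aa1 and -0.023 to 0.030 for Hspd1; in BEC tumour against BEC normal, -0.072 to 0.061 for Hsph1; for the interaction, -0.37 to 0.091 for Hsp90aa1 and -0.027 to 0.052 for Dnajb1; and in EO771, -0.092 to 0.24 for Dnajb1. The cause was not tested.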
